A study of Sinonovacula constricta with 18 samples.

Results

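In the razor clam *Sinonovacula constricta*, 67 of the 32250 isoform clusters measured (0.208%) stood out in the labial palp. They were chosen by their FPKM, fragments per unit of transcript length and of sequencing depth. A cluster was kept where its lowest labial palp library held at least 1 FPKM and more than each of the 15 libraries of other tissues, and where the palp mean plus 0.1 was at least 4 times the highest other tissue mean plus 0.1. That quotient is called the palp ratio and gives each member its rank, with rank 1 for the largest. All clusters that met the rule were taken, since fewer than the limit of 150 did so. Because these values chose the members, palp levels and palp ratios are given as a description, with no test.

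Labial palps are ciliated, mucus-secreting flaps beside the mouth of a bivalve. They take up particle strings delivered by the gill, sort them, pass part of the material to the mouth and reject the rest. The gill collects particles from the water drawn in through the siphon, the intestine receives what has been swallowed, the mantle lines the shell, and the foot is the muscle used for digging.

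The libraries came from healthy adult clams, and the labels name no treatment, strain, sex or age. Labial palp, siphon, gill, mantle, intestine and foot muscle had 3 libraries each, and the series text says that every library pooled 3 individuals. Nothing in the labels says whether pools of different tissues came from the same animals. Whole tissues were measured, so fewer cells of a type and less RNA per cell cannot be told apart. The files do not pair the clusters with gene names, so the tissue labels could not be checked against marker genes, no member is given a function here, and members are called by their rank. The cluster names carry the letters ICE, the name of a procedure that groups long Pacific Biosciences reads into isoforms, and the series text names an instrument of that maker, whereas the labels name a kit for short Illumina reads.

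Estimated reads per library ranged from 10677055 to 11532787 in the labial palp, from 14701660 to 17970120 in the siphon, from 11343855 to 11796712 in the gill, from 10905656 to 12116543 in the mantle, from 9982441 to 10505352 in the intestine and from 14880761 to 17398968 in foot muscle. The FPKM scale shifted the median of all clusters between tissues. On log2(FPKM + 0.1), labial palp minus foot muscle had a median of 1.0 over all clusters, labial palp minus siphon 0.71, minus mantle 0.42, minus intestine 0.16 and minus gill 0.04. After TMM scaling, which sets library sizes so that most clusters have a ratio near 1, these medians lay between 0 and 0.04. The members' own medians on the FPKM scale were 5.13 against foot muscle, 4.84 against siphon, 4.28 against mantle, 4.23 against intestine and 3.47 against gill, and on the TMM scale they were 3.97, 4.02, 3.76, 3.82 and 3.37 for the same tissues.

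The members made up about 1% of the labial palp transcriptome and less of every other tissue. Their FPKM summed to 1.05%, 0.951% and 1.11% of the library total in labial palp replicates 1 to 3, a mean of 1.04% ± 0.0824 (SD, n = 3). The share was 0.149% ± 0.0373 in the gill, 0.127% ± 0.0288 in the intestine, 0.0634% ± 0.00571 in the mantle, 0.0301% ± 0.00722 in foot muscle and 0.0272% ± 0.000909 in the siphon (SD, n = 3 each). Counted in reads, the labial palp share was 0.969% ± 0.077. The median member had 48.9, 47.6 and 45.7 FPKM in the labial palp libraries, against 2.68 to 4.09 FPKM in gill, 1.60 to 4.21 in mantle, 1.45 to 2.22 in siphon, 1.08 to 3.27 in foot muscle and 1.01 to 1.26 in intestine libraries.

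**Figure D1:**
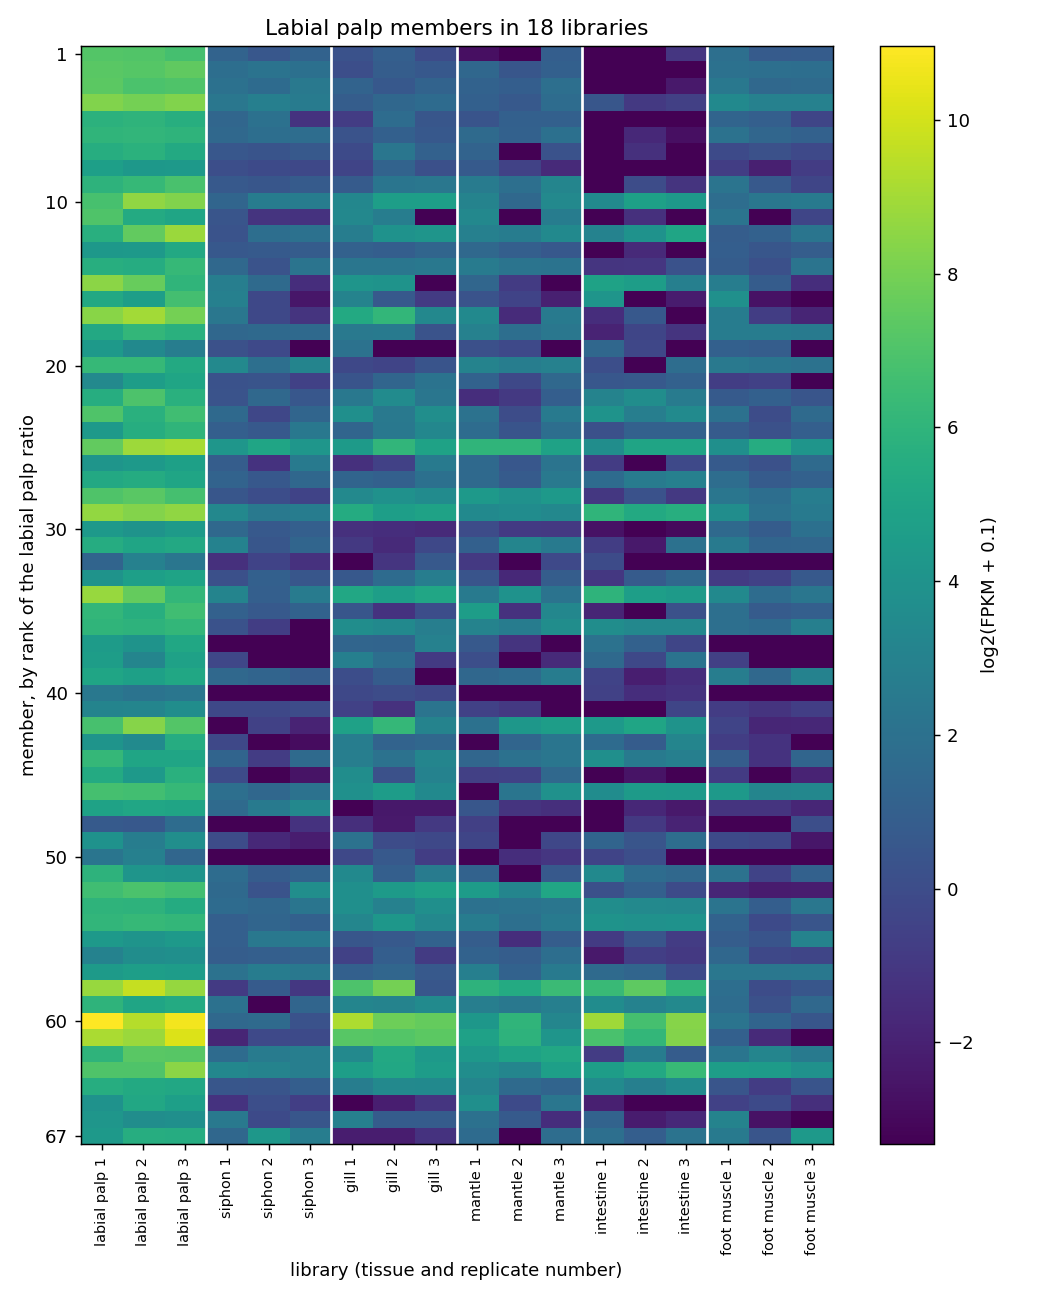
Colour gives log2(FPKM + 0.1) of each of the 67 members, ordered downwards by rank of the palp ratio, in the 18 libraries, with white lines between tissues. The labial palp columns are the brightest in every row, as the rule requires, and the first 9 rows are darkest in the intestine columns, where their means lie under 1 FPKM.

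None of the members was confined to the labial palp. All 67 had reads in the other tissues, with a sum over the 15 libraries of 17.5 to 13713 estimated reads and a median of 654. The palp ratio had a median of 6.29 and ranged from 4.05 to 53.6. It was 8 or more in 23 members, 10 or more in 15 and 20 or more in 5. The list therefore holds clusters enriched in the labial palp, in FPKM, by a factor of at least 4 over the next tissue. The word restricted does not describe them. On counts scaled by TMM, 51 of the 67 members had a ratio of 4 or more, and the lowest was 2.02.

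The cluster of rank 1, i1_ICE_sample8a197f|c131180/1/1976.2, had 141, 138 and 109 FPKM in the labial palp. Foot muscle, the next tissue, had 3.66, 1.60 and 1.70 FPKM, and the siphon 2.25, 1.39 and 2.15. The gill held 1.10, 1.87 and 0.86 FPKM, the mantle 0.05, 0 and 1.81, and the intestine 0, 0 and 0.38. The lowest labial palp library was thus 29.9 times the highest of the 15 others. Rank 2, i1_ICE_sample8a197f|c94973/1/1615, had 156, 144 and 178 FPKM in the labial palp, against 3.54, 4.29 and 3.81 in the siphon and 3.92, 3.69 and 3.43 in foot muscle. It had 2.64, 1.33 and 2.01 FPKM in the mantle, 0.96, 1.79 and 1.41 in the gill, and 0 in all 3 intestine libraries. Its palp ratio was 40.1, and its gap of 33.5 times between the lowest labial palp library and the highest other library was the widest among the 67.

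Ranks 3 and 4 had the same shape. Rank 3 had 165, 122 and 129 FPKM in the labial palp, with no other library above 5.28 and the intestine at 0, 0 and 0.10. Rank 4 was the most abundant of the first 10, with 309.5, 253 and 301 FPKM in the labial palp and 11.0, 7.61 and 7.60 in foot muscle, its next tissue. Ranks 5 to 8 had smaller levels and the same dip in the intestine. Rank 5 had 57.8, 62.8 and 50.5 FPKM in the labial palp and 0 in every intestine library. Rank 6 had 65.5, 68.8 and 63.2 FPKM in the labial palp and at most 4.03 elsewhere. For these 2 members the labial palp libraries lay closer together than for most of the list.

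Rank 7 had 47.6, 56.2 and 41.2 FPKM in the labial palp and 0.83, 4.78 and 2.03 in the gill. Rank 8 had 26.3, 19.4 and 20.8 FPKM in the labial palp and 0.66, 2.23 and 1.02 in the gill. In both, gill replicate 2 was the highest library outside the labial palp. Rank 9 had 61.2, 76.0 and 114 FPKM in the labial palp and 6.04, 3.56 and 8.86 in the mantle. Rank 10 departed from the pattern, with 112, 382 and 301 FPKM in the labial palp, 9.52, 25.5 and 26.1 in the gill and 11.4, 27.6 and 20.6 in the intestine. In all 3 of these tissues its replicate 1 was the lowest library, while in the mantle replicate 2 was.

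**Figure D2:**
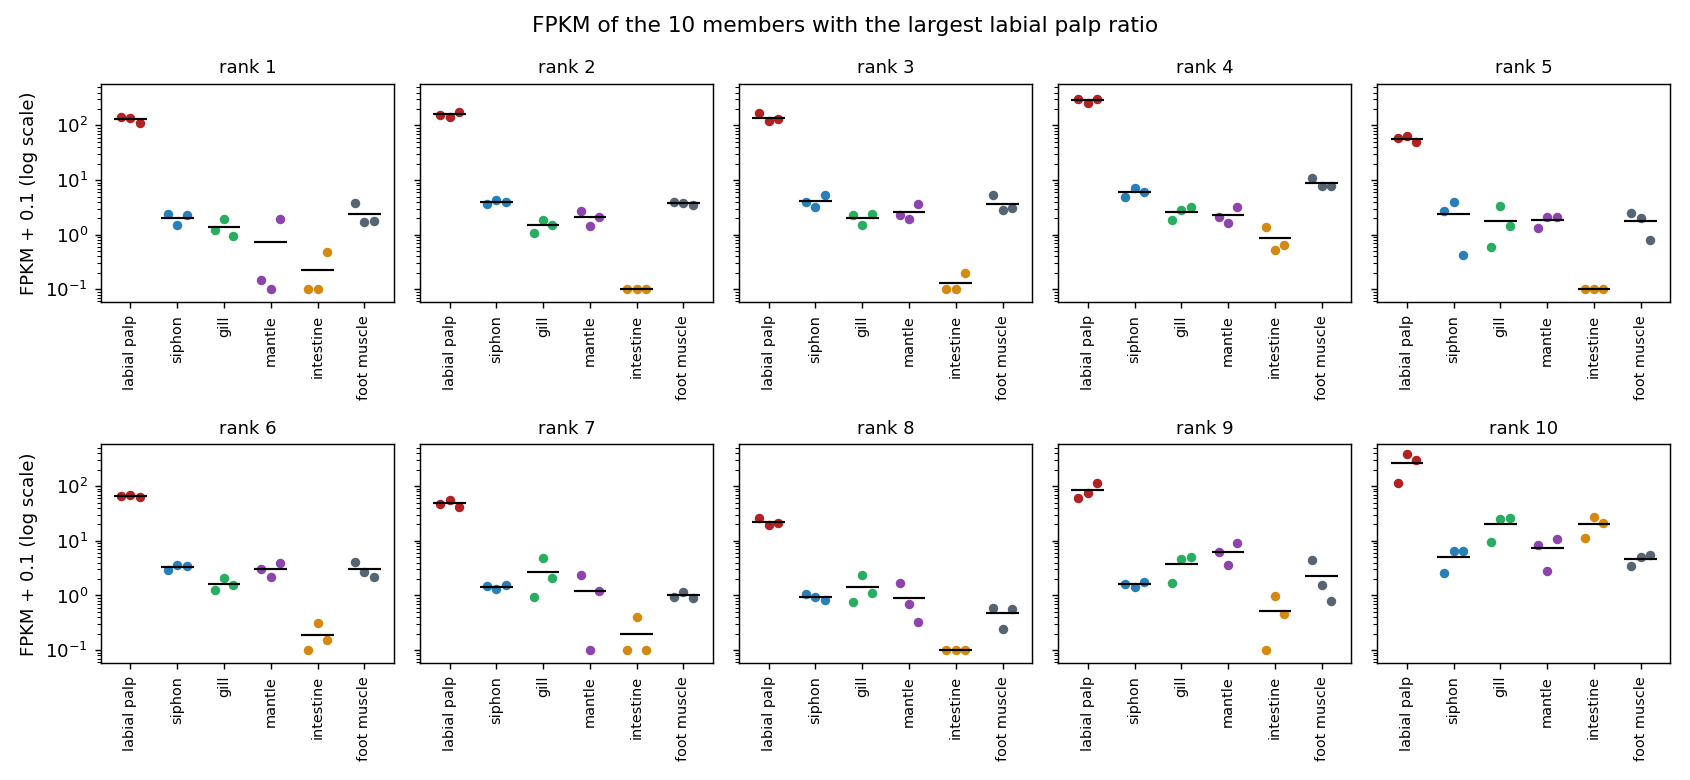
Points are FPKM + 0.1 on a log axis in each library for the members of rank 1 to 10, and bars are tissue means. The intestine points of ranks 1 to 9 sit at or near the bottom of the axis, whereas rank 10 has intestine values of 11.4 to 27.6 FPKM.

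The most abundant members were not those with the largest ratios. Labial palp means ranged from 2.04 to 1452 FPKM with a median of 54.2, and 19 members reached 100 FPKM while 4 stayed under 10. Among all clusters ordered by labial palp mean, the members stood between place 55 and place 23016, with a median place of 2318. The 4 most abundant made up 38.5% of the members' labial palp FPKM, and the 10 most abundant 59.9%.

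Rank 60, the most abundant member, had 1995, 657 and 1704 FPKM in the labial palp, against 589, 225 and 195 in the gill and 485, 109 and 333 in the intestine. Its mantle values were 18.9, 64.4 and 9.22 FPKM, its foot muscle values 4.43, 2.30 and 1.31 and its siphon values 2.73, 2.98 and 1.11. Rank 61 had 576, 446 and 1171 FPKM in the labial palp, 151, 139 and 166 in the gill and 114, 70.1 and 323 in the intestine. Both clusters were abundant in these 3 tissues and low in siphon and foot muscle. Rank 61 had 0.18, 0.78 and 0.82 FPKM in the siphon and 2.02, 0.23 and 0 in foot muscle. Rank 58 had 427, 835 and 413 FPKM in the labial palp, 123.5, 250.1 and 1.33 in the gill and 83.5, 169 and 69.2 in the intestine. It also had 60.45, 41.8 and 86.3 FPKM in the mantle, and it was low in siphon and foot muscle. Gill replicate 3 stood far under the other gill libraries for rank 58.

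Rank 25 was spread more evenly, with 182, 475 and 542 FPKM in the labial palp, 65.3, 63.9 and 30.2 in the mantle, 22.1, 66.4 and 30.4 in the gill and 13.9 to 45.1 in foot muscle. Rank 29 had 407, 318 and 391.6 FPKM in the labial palp and 66.2, 41.3 and 50.4 in the intestine. Rank 17 had 346, 500.5 and 248 FPKM in the labial palp and 41.2, 71.2 and 10.02 in the gill, while no intestine library exceeded 1.41. Gill and intestine were thus far apart for rank 17. Ranks 34 and 12 were the least even within the labial palp. Rank 34 had 436, 196 and 70.7 FPKM there and 63.7, 25.5 and 22.2 in the intestine. Rank 12 had 51.5, 184 and 451 FPKM in the labial palp and 7.81, 15.5 and 33.5 in the intestine. In rank 12 the same replicate was lowest, and the same one highest, in both tissues.

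The labial palp libraries of a member were often unequal. The highest labial palp library was 1.09 to 8.76 times the lowest, with a median of 1.94, and the factor was under 2 in 36 members. Over the 19187 clusters with at least 1 FPKM in every labial palp library the median factor was 1.77. Ranks 11, 12, 15 and 34 had a factor of 4 or more. The highest library was replicate 1 in 21 members, replicate 2 in 21 and replicate 3 in 25. The lowest labial palp library exceeded the highest other library by a factor of 1.01 to 33.5, with a median of 2.76, and by 2 or more in 45 members.

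Members at the edge of the rule were close to clusters just outside it. Rank 67, the last inside, had 21.4, 47.9 and 45.7 FPKM in the labial palp, and its highest other library was foot muscle replicate 3 with 21.2. Siphon replicate 2 also reached 19.02 FPKM for it. Ranks 63 to 67 had palp ratios of 4.27, 4.15, 4.13, 4.12 and 4.05, and the first 5 clusters outside had 3.95, 3.86, 3.82, 3.75 and 3.72. Before the limit of 4, 698 clusters had all labial palp libraries at 1 FPKM or more and above the 15 others, and the members were 9.60% of these. Some members rest on few reads. The lowest labial palp library held a median of 396 estimated reads per member, but 7.32 for rank 32, 11.8 for rank 50 and 26.1 for rank 48.

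The tissue that came second to the labial palp differed between members, and the order of tissues depended on the scale. In FPKM the gill came second for 24 members (35.8%), the intestine for 18 (26.9%), the mantle for 10 (14.9%), the siphon for 9 (13.4%) and foot muscle for 6 (8.96%). Over all clusters with a labial palp mean of at least 1 FPKM, the highest of the other 5 tissues was the gill in 33.6%, the intestine in 35.5%, the mantle in 18.3%, the siphon in 6.37% and foot muscle in 6.12%. TMM-scaled CPM divides each count by the library size that TMM sets, and not by transcript length. On that scale the numbers of members were 15 for the gill, 17 for the intestine, 11 for the mantle, 7 for the siphon and 17 for foot muscle. The lead of the gill thus does not hold there. In FPKM the median quotient of labial palp over tissue, 0.1 added to both, was 9.28 for the gill, 13.3 for the intestine, 14.4 for the mantle, 24.0 for the siphon and 32.6 for foot muscle.

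In FPKM, many members were low in the intestine. It was the tissue with the lowest mean for 26 members, and 30 members had an intestine mean under 1 FPKM, against 20 in the siphon, 20 in foot muscle, 16 in the mantle and 13 in the gill. Members at 0 in all 3 libraries of a tissue numbered 3 in the intestine, 3 in the siphon, 4 in foot muscle, 1 in the mantle and 0 in the gill. A count of 0 reads in a library allows an expected count of up to 3 at 95% confidence, and does not mean that reads were present. These counts are not set beside those of all clusters, so whether they are particular to the members was not tested. The 9 members with the siphon second had a median intestine mean of 0.1 FPKM and median means of 4.18 in the siphon and 3.68 in foot muscle. The 18 members with the intestine second had median means of 11.1 FPKM in the intestine, 10.5 in the gill, 2.46 in foot muscle and 2.10 in the siphon. The grouping itself, made in FPKM, puts the siphon high in the first group and the intestine high in the second. By these medians the tissue nearest to it was foot muscle in the first group and the gill in the second.

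Whether the members differed among the 5 other tissues was tested with labial palp libraries left out of the fit. The rule limits how high these tissues can be but not their order. In edgeR's quasi-likelihood F-test with Benjamini-Hochberg adjustment over 29794 clusters, 28 of the 67 members passed an adjusted p of 0.05, or 41.8%, where 21.1% of all clusters tested did. All 67 members had passed the filter of 10 reads over the 15 libraries. The smallest adjusted p values belonged to rank 2 (2.72e-05), rank 28 (5.39e-05) and rank 30 (9.42e-05). Rank 28 had 10.6, 14.96 and 11.8 FPKM in the gill, 20.1, 14.9 and 21.1 in the mantle, 4.71, 3.44 and 6.47 in foot muscle, 1.31, 0.95 and 0.63 in the siphon and 0.40, 1.13 and 0.41 in the intestine. No library of its gill and mantle overlapped with those of the other 3 tissues. Of the 28 members, 8 had the siphon second, 7 the gill, 5 the intestine, 4 the mantle and 4 foot muscle.

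Gill, the organ that hands particles to the labial palp, was compared with each of the other 4 tissues in the same fit. Log2 fold changes come from TMM-scaled counts, and levels are in FPKM. Against the siphon, 9 members were higher in the gill and 6 lower by edgeR at an adjusted p of 0.05, where 4.22% of all clusters were higher and 4.54% lower. The members' median log2 fold change was 0.60, and that of all clusters -0.02. On log2(FPKM + 0.1) with limma, 21 of 67 members were higher and 4 lower, and of 29794 clusters 4622 were higher and 1074 lower. Together these were 37.3% of members and 19.1% of all clusters. DESeq2 called 12 members higher and 11 lower, and over all clusters 2452 higher and 2518 lower. Together those were 34.3% of members and 16.7% of all clusters. Without gill replicate 1 the edgeR count was 9 members in place of 15.

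The members higher in the gill than in the siphon were ranks 28, 29, 36, 40, 42, 54, 58, 60 and 61, of which rank 40 was lost with the replicate number as a block (edgeR adjusted p = 0.113). The call was clearest for rank 28, with a log2 fold change of 2.94 (SE 0.442, edgeR adjusted p = 0.0014) between the values given. Rank 60, with 589, 225 and 195 FPKM in the gill against 2.73, 2.98 and 1.11 in the siphon, had 6.35 (SE 0.977, edgeR adjusted p = 0.00166). Rank 42 had 28.4, 72.8 and 8.34 FPKM in the gill against 0, 0.58 and 0.17 in the siphon, with a log2 fold change of 6.33 (SE 1.29, edgeR adjusted p = 0.00899) that rests on 5.25 estimated siphon reads in all. For all 3 the gill and siphon libraries did not overlap. They did for rank 58, where gill replicate 3 had 1.33 FPKM and siphon replicate 2 had 1.63.

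The members lower in the gill than in the siphon were ranks 2, 4, 30, 47, 57 and 67. Rank 47 had 0, 0.09 and 0.09 FPKM in the gill against 2.95, 5.50 and 10.2 in the siphon (edgeR adjusted p = 0.00284), and no fold change is given because the gill libraries held 0, 1 and 1 reads. Its labial palp values were 29.6, 34.5 and 32.2 FPKM. Rank 30 had 0.29, 0.26 and 0.23 FPKM in the gill against 2.72, 1.48 and 1.94 in the siphon, a log2 fold change of -3.72 (SE 0.63, edgeR adjusted p = 0.00301). Rank 2 stood at -2.25 (SE 0.394, edgeR adjusted p = 0.00605). Rank 2, with the widest labial palp gap, and rank 60, with the highest labial palp level, were thus called in opposite directions between gill and siphon.

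Against the intestine, 12 members were higher in the gill and 0 lower by edgeR, where 4.15% of all clusters were higher and 1.88% lower. The members were ranks 2, 3, 4, 5, 6, 8, 13, 14, 18, 28, 30 and 52, which include 6 of the first 8 ranks. With the replicate number as a block rank 4 was no longer called (edgeR adjusted p = 0.0567). The median log2 fold change of all 67 members was 0.57, and that of all clusters 0.01. At an unadjusted p under 0.05, 22 of 67 members and 5055 of 29794 clusters differed. DESeq2 called 17 members higher and 1 lower, and 2489 clusters in all higher and 1337 lower. Its calls made up 26.9% of members and 12.8% of all clusters. Rank 2 was at 0 in the intestine and at 0.96 to 1.79 FPKM in the gill (edgeR adjusted p = 0.000122). Rank 28 had a log2 fold change of 4.18 (SE 0.469, edgeR adjusted p = 0.000312). Rank 3 had 2.20, 1.42 and 2.26 FPKM in the gill against 0, 0 and 0.10 in the intestine (edgeR adjusted p = 0.00192). The abundant ranks 58, 60 and 61 were not among those called. Without intestine replicate 3 the count was 6.

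Against the mantle, edgeR called 0 members higher and 0 lower in the gill, where 1.49% of all clusters were higher and 1.58% lower. At an unadjusted p under 0.05 there were 19 of 67 members and 5409 of 29794 clusters. DESeq2 called 5 members higher and 11 lower in the gill, 23.9% of them where it called 13.3% of all clusters. With limma on log2(FPKM + 0.1) 4 were higher and 1 lower, 7.46% of the members and 7.83% of all clusters, so the direction that prevailed depended on the tool. Levels could still lie far apart, as for rank 60, with 589, 225 and 195 FPKM in the gill against 18.9, 64.4 and 9.22 in the mantle. The count was 1 without mantle replicate 2, mantle replicate 3, intestine replicate 2 or intestine replicate 3.

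Against foot muscle, 9 members were higher in the gill and 5 lower by edgeR, where 6.0% of all clusters were higher and 6.17% lower. The median log2 fold change was 0.52 for the members and 0.00 for all clusters. With limma on log2(FPKM + 0.1) 21 of 67 members were higher and 5 lower, and of 29794 clusters 7349 were higher and 1184 lower. Together these were 38.8% of members and 28.6% of all clusters. DESeq2 called 10 members higher and 13 lower, and over all clusters 3148 higher and 3078 lower, so the balance of directions depended on the tool. The DESeq2 calls made up 34.3% of members and 20.9% of all clusters. The count was 9 without gill replicate 2 and 9 without foot muscle replicate 2.

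Higher in the gill than in foot muscle were ranks 29, 40, 42, 52, 54, 58, 60, 61 and 64, of which rank 40 was not called with the replicate number as a block (edgeR adjusted p = 0.104). For rank 58 gill replicate 3, at 1.33 FPKM, lay under foot muscle replicate 1, at 3.50. Rank 52 had 13.9, 22.2 and 28.6 FPKM in the gill against 0.19, 0.11 and 0.12 in foot muscle, a log2 fold change of 6.16 (SE 0.972, edgeR adjusted p = 0.0015) that rests on 7 foot muscle reads in all. Rank 60 stood at 5.89 (SE 0.957, edgeR adjusted p = 0.00184). Rank 54 had 9.40, 18.8 and 9.93 FPKM in the gill against 2.16, 0.81 and 1.28 in foot muscle, with 2.17 (SE 0.38, edgeR adjusted p = 0.00286). Of these, rank 52 was also low in the intestine, at 1.01, 2.01 and 0.85 FPKM, and high in the mantle, at 22.5, 8.90 and 35.2.

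Lower in the gill than in foot muscle were ranks 2, 4, 30, 57 and 67, all of which were also lower than in the siphon. Rank 30 had a log2 fold change of -4.42 (SE 0.65, edgeR adjusted p = 0.000995), with 2.83, 1.68 and 3.77 FPKM in foot muscle. Rank 4 had 1.79, 2.68 and 3.08 FPKM in the gill against 11.0, 7.61 and 7.60 in foot muscle, a log2 fold change of -2.82 (SE 0.444, edgeR adjusted p = 0.00148). Rank 2 stood at -2.45 (SE 0.397, edgeR adjusted p = 0.00311). The siphon and foot muscle contrasts share the gill libraries, so the lists of members are given side by side only.

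**Figure D3:**
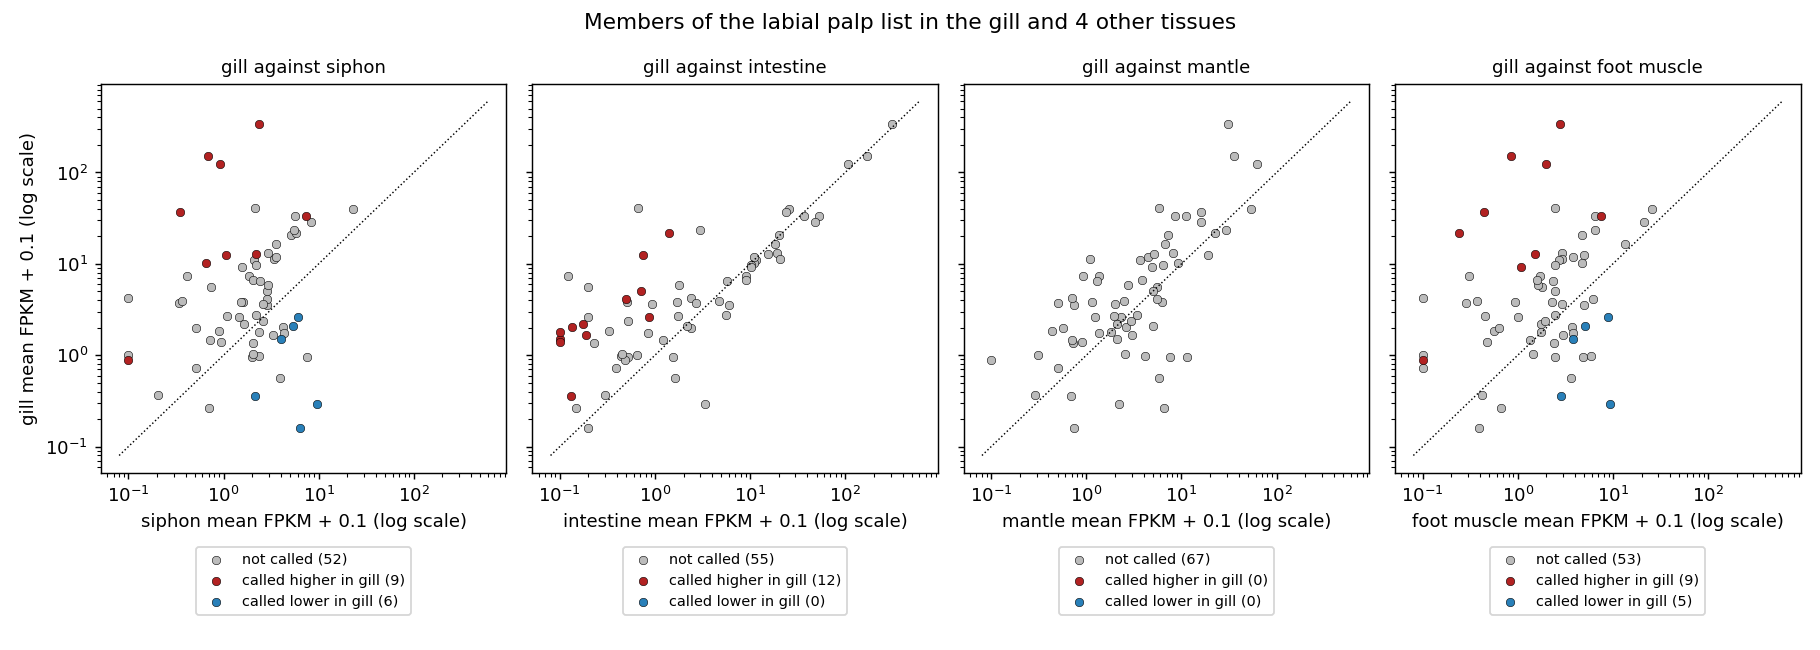
Each point is a member, with its gill mean FPKM + 0.1 on the vertical axis and the mean of the named tissue on the horizontal axis, both on log scales, coloured by the edgeR call at an adjusted p of 0.05, and the dotted line marks equal values. The 3 points highest in the gill, ranks 58, 60 and 61, lie near the line in the intestine panel and far above it in the siphon and foot muscle panels, each of which has 9 members called higher in the gill.

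Replicate numbers were shared across tissues, and some members differed by number. Over all 18 libraries with tissue in the model, 8 of 67 members differed by number at an adjusted p of 0.05 in edgeR, or 11.9%, where 17.7% of all clusters tested did. They were ranks 12, 15, 19, 23, 25, 26, 62 and 66. The count was 16 (23.9%) without the mantle libraries, where 33.2% of all clusters were called, and 14 without mantle replicate 2, and it lay between 3 and 5 without any 1 of the siphon, gill, intestine or foot muscle libraries or without labial palp replicate 2.

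The clearest member by number was rank 23 (edgeR adjusted p = 0.00239). It had 131, 54.4 and 95.3 FPKM in replicates 1 to 3 of the labial palp, 13.9, 5.36 and 13.4 in the gill, 16.2, 6.73 and 11.3 in the intestine and 3.85, 0.89 and 3.01 in foot muscle. Replicate 2 was its lowest library in all 6 tissues. Rank 12 followed (edgeR adjusted p = 0.00703), with replicate 1 lowest in 5 tissues and replicate 2 lowest in the mantle. Rank 62 was the third (edgeR adjusted p = 0.012), with 61.7, 159 and 155 FPKM in the labial palp and 10.6, 38.5 and 21.0 in the gill. Its replicate 1 was the lowest library in every tissue.

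Taken over the 3 replicate numbers, the members' deviations from their tissue means in the labial palp went with those in 4 tissues and not in the mantle. On log2(FPKM + 0.1), the deviations of the labial palp correlated with those of the intestine at r = 0.47 over 37 members with means of at least 1 FPKM, with the gill at 0.46 over 54, with the siphon at 0.32 over 47, with foot muscle at 0.31 over 47 and with the mantle at 0.03 over 51. Over all clusters of that kind the values were 0.83, 0.64, 0.62, 0.60 and 0.01 for the same tissues. Split by number, the all-cluster values with gill, siphon and foot muscle were 0.66 to 0.77 in replicates 1 and 2. In replicate 3 they were 0.32 to 0.34, while the intestine stood at 0.82. The members' values in replicate 3 were 0.41 with the gill, 0.36 with the intestine, 0.22 with foot muscle and 0.11 with the siphon. Each member gives 3 points, and the points of a tissue share the same 3 pairs of libraries. The cause of the shared deviations was not tested.

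**Figure D4:**
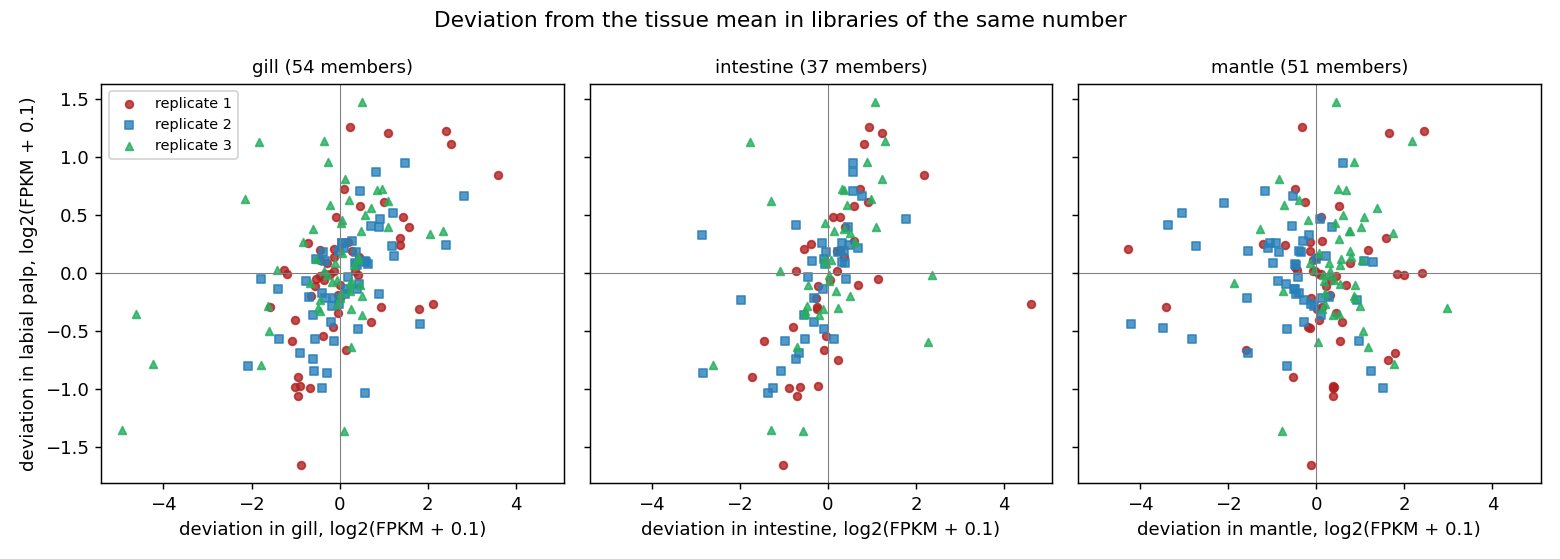
Each point is 1 member in 1 replicate number, with its deviation from the labial palp mean on the vertical axis and from the gill, intestine or mantle mean on the horizontal axis, in log2(FPKM + 0.1). The gill and intestine clouds slope upwards (r = 0.46 and 0.47) and the mantle cloud does not (r = 0.03).

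The labial palp excess was also sought in libraries that had no part in a choice. The rule was applied to the 12 libraries of a pair of replicate numbers, and the values were read in the 6 libraries of the number left out. With replicate 1 left out, 91 clusters were chosen, and the labial palp was the highest of the 6 left-out libraries in 76 of them (83.5%), where it was highest in 21.0% of all clusters with a value above 0 there. With replicate 2 left out, 91 were chosen and 78 held (85.7%), against a background of 21.9%. With replicate 3 left out, 76 were chosen and 65 held (85.5%), against 24.6%. Most of the chosen clusters, 63, 57 and 58 in that order, were members. For members the rule over all 18 libraries requires the labial palp to be highest, so their part of these shares was fixed beforehand. The background takes in clusters of any labial palp level, so the shares are given as a description.

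With 0.1 added, the size of the excess was smaller in the libraries left out. The palp ratio was 4 or more in 46 of 91, 52 of 91 and 44 of 76 clusters with replicate 1, 2 and 3 left out. Its median in the left-out libraries was 4.25, 4.82 and 4.53, against 5.94, 6.0 and 7.25 in the libraries that chose them. With 1 added it was 4.60, 6.32 and 4.71 in the left-out libraries, against 6.77, 6.15 and 6.44, so with replicate 2 left out the direction depended on the pseudocount. As same-numbered libraries deviate together, the left-out libraries are not independent of one another.

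**Figure D5:**
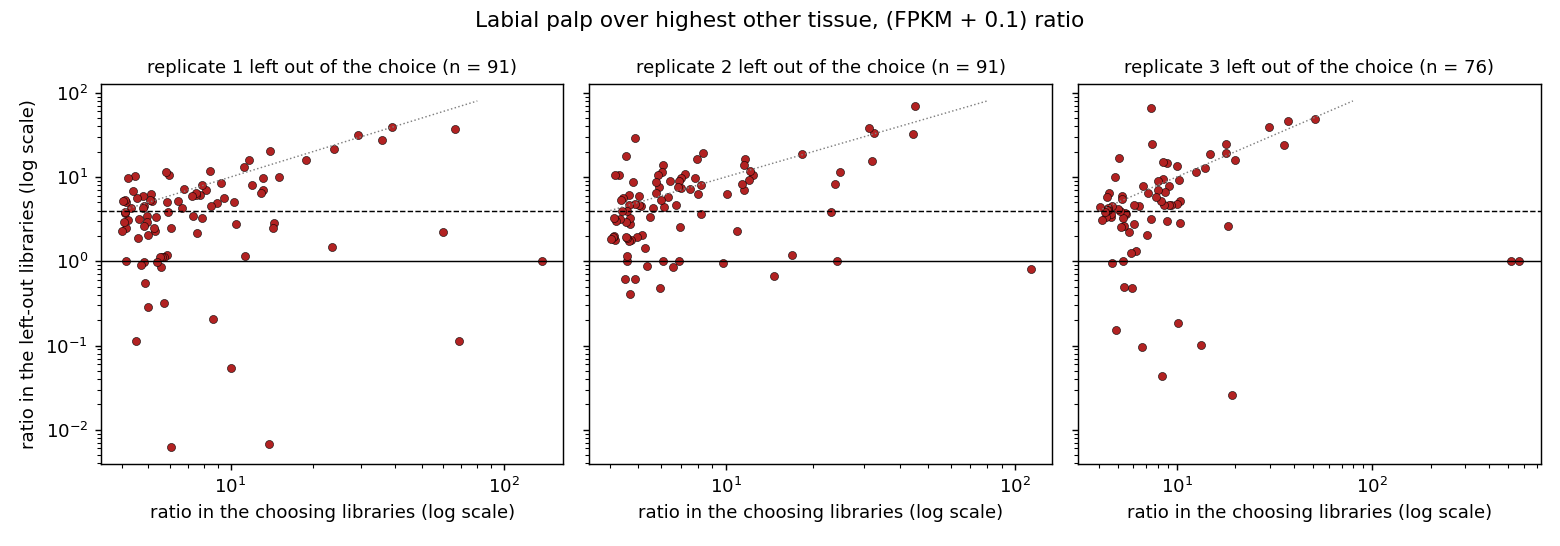
Each point is a cluster chosen on 2 replicate numbers, with its palp ratio in the choosing libraries on the horizontal axis and in the 6 libraries left out on the vertical axis, both on log scales. The solid line marks a ratio of 1 and the dashed line a ratio of 4, and 46, 52 and 44 points reach the dashed line in the panels for replicates 1, 2 and 3.

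Cluster names carry 3 numbers and, in some, a suffix. The last whole number falls in the kilobase class given at the start of the name for 99.9% of clusters and is taken as the length. By that reading the members' median length was 1976 bases, and that of all clusters 2139. The length that count over FPKM implies was a median of 0.306 times the named number in members with a suffix and 0.835 times in those without, against 0.291 and 0.866 times over all clusters, so for suffixed clusters the named number was not the length behind the FPKM. A suffix was present in 35 members (52.2%) and in 42.7% of all clusters. Support, read from the middle number, was 1 in 49 members (73.1%) and in 78.4% of all clusters, and reached 48 in rank 46. Neither reading is stated in the sources used here.

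The members came from 62 name stems, of which 5 gave 2 members each, ranks 1 and 3, 5 and 6, 7 and 8, 21 and 32, and 54 and 64. On log2(FPKM + 0.1) the 2 members of a stem correlated over the 18 libraries at r = 0.913, 0.956, 0.918, 0.824 and 0.975 in that order. Members of a stem may share reads, so how counts were divided between them is uncertain and they do not count as separate observations. A further 5 clusters shared a stem with a member without being chosen. The one that shares the stem of rank 25 had 114, 0 and 0 FPKM in the labial palp, so its ratio of 6.41 came from 1 library, and the one beside rank 34 was at 0 in all 18 libraries. The other 3 had ratios of 1.78 beside rank 66 and of 3.52 and 2.44 beside rank 56.

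The rule kept 67 clusters in the labial palp and, put to each other tissue in turn, 271 in the intestine, 99 in the mantle, 76 in the gill, 42 in foot muscle and 39 in the siphon. As a share of clusters with all 3 libraries of a tissue above the other 15, the number kept was smallest in the labial palp, with 9.60%, and was 28.0% in the mantle, 25.3% in the intestine, 22.4% in the siphon, 14.9% in the gill and 13.9% in foot muscle.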

How the data were processed

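RNA-seq libraries of 6 tissues of *S. constricta*, 3 per tissue, were grouped by the sample labels. The authors deposited 2 values for each of 32250 isoform clusters in every library, an FPKM and an estimated count. The submitters' processing notes name RSEM, Bowtie2 and DESeq 1.10.1 without a role, with the reference and filters not given in the sources used here. Each library is a pool of 3 individuals, so p-values measure the spread between pools. The main tissue fits hold no term for the replicate number, so the spread that same-numbered libraries share stays in them. The members and the tests were chosen with earlier results of these data known.

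FPKM served the rule, with 0.1 added. Counts were rounded, a sum of 10 reads over the libraries of a fit was required, and edgeR 4.0.16 under R 4.3.3 gave quasi-likelihood F-tests (TMM, Benjamini-Hochberg adjustment, threshold 0.05). SE is the absolute log2 fold change over the root of F. The script was tested on simulated data. Alternatives were DESeq2 1.42.0, its size factors, limma 3.58.1 on log2(FPKM + 0.1), other read filters, pseudocounts and floors, the median, TMM-scaled CPM, a replicate block, and leaving out each library. The median biological coefficient of variation was 0.675 over 15 libraries. The counts carry no unique molecular identifiers, and depth covers counting error only.

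Described by rank were ranks 1 to 10, the 10 members highest in the labial palp, the 5 last inside and first outside the rule, and up to 3 members with the smallest adjusted p per direction of each test. Cluster names are given for ranks 1 and 2. Other ranks named for a spread, low reads, a stem or as a called member were added after their values were seen. Deviations from tissue means of same-numbered libraries were correlated over 26222 clusters with at least 180 reads, and a value above 0.1 was counted as pairing. Gill with siphon or foot muscle gave 0.701 to 0.795. Gill with intestine gave 0.695, 0.631 and 0.291 in replicates 1 to 3. All 9 pairs passed the limit, but replicate 3 of gill and intestine was far weaker than the others. Gill with mantle gave 0.011 to 0.029 (3 pairs), which does not count as pairing.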

Additional observations from a re-analysis of the deposited data

How the results depend on the processing

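The number of members that differed among the 5 other tissues was 28, with 42 by DESeq2, 39 by limma and 20 to 26 with 1 library left out. By edgeR, DESeq2 and limma in turn these were 41.8%, 62.7% and 58.2% of members, against 21.1%, 34.3% and 35.6% of all clusters. For fits with 1 library left out the share over all clusters is not given here. For gill against siphon it was 15, with 23 by DESeq2, 25 by limma and 9 to 17 with 1 library left out. By the 3 tools in that order these were 22.4%, 34.3% and 37.3% of members, against 8.76%, 16.7% and 19.1% of all clusters. For gill against intestine it was 12 (17.9% of members, against 6.02% of all clusters), with 6 to 12 when 1 library was left out. For gill against mantle it was 0, with 16 by DESeq2, 5 by limma and 0 to 1 with 1 library left out. By the 3 tools these were 0%, 23.9% and 7.46% of members, against 3.07%, 13.3% and 7.83% of all clusters. For gill against foot muscle it was 14, with 23 by DESeq2, 26 by limma and 9 to 15 when 1 library was left out. By the 3 tools these were 20.9%, 34.3% and 38.8% of members, against 12.2%, 20.9% and 28.6% of all clusters. By replicate number it was 8, with 14 by DESeq2, 16 without the mantle libraries and 3 to 14 with 1 library left out. The first 3 of these counts were 11.9%, 20.9% and 23.9% of members, where 17.7%, 29.7% and 33.2% of all clusters were called. With the replicate number as a block it was 30 among the 5 tissues, 17 against siphon, 13 against intestine, 3 against mantle, where the numbers do not pair the libraries, and 16 against foot muscle. Those were 44.8%, 25.4%, 19.4%, 4.48% and 23.9% of members, where 26.3%, 11.5%, 7.63%, 5.85% and 15.6% of all clusters were called. Replicate 3 paired gill and intestine only weakly (0.291), so how far the block applies there is uncertain. Under the block rank 40 was no longer called against siphon or foot muscle, nor rank 4 against the intestine. Each of the 21 tests singled out by the smallest adjusted p kept its call in all of its alternatives (450 of 450). Direction was kept too in the gill contrasts, while the other tests have none. Being picked for small adjusted p values, they do not speak for the remaining calls. The rule kept 55 clusters with a pseudocount of 1, 69 with 0.01, 63 with a floor of 5 FPKM, 70 with no floor, 65 with medians and 63 to 88 with 1 library left out, when 60 to 67 of the members were among them. On TMM-scaled CPM it kept 48, all of them members, and the members' median ratio was 4.89, against 6.29 in FPKM and 5.94 to 6.66 with 1 library left out. Of the members, 62 had every labial palp library above the other 15 on that scale. With a pseudocount of 1 the labial palp was highest in the left-out libraries of replicates 1, 2 and 3 in 86.6%, 92.1% and 90.2% of the clusters chosen. Of those 67, 63 and 61 clusters, 52, 50 and 51 were members, for which the rule requires it. The causes were not tested. With 3 pools a tissue, differences in members with few reads, such as ranks 32 and 50, may not be detectable at this depth.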
